A study of Mus musculus with 2 samples.

Results

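The tumour suppressor p53, several genes it is known to switch on, and regulators of mitochondrial apoptosis were followed in single mouse embryos. The 10 genes were chosen by name: Trp53, which encodes p53, its inhibitor Mdm2, the p53 targets Cdkn1a, Ccng1 and Trp53inp1, and the apoptosis regulators Bax, Bak1, Bcl2l1, Bcl2l11 and Mcl1. They are 10 of 52366 genes in the count table. The values that follow are those of 24 pseudoblastocysts, which are embryos with a cavity collected at 96 h post insemination (hpi) without checking for an inner cell mass (ICM). They came from B6D2F1 oocytes fertilized in vitro with ICR sperm, and all were grown one by one after the zona pellucida had been removed. The 6 1C embryos developed from whole zygotes stripped of the zona at 5 hpi, the 6 2CB embryos from single blastomeres taken at the 2-cell stage (24 hpi), and the 6 4CB and 6 8CB embryos from single blastomeres of 4-cell and 8-cell embryos (48 hpi). Which blastomeres came from the same parent is not recorded in the labels, so embryos of a stage may not be independent, and p-values measure the spread between these embryos.

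p53 is a transcription factor that is kept at a low level by MDM2, a ubiquitin ligase whose gene p53 itself activates. Stress that stabilizes p53 raises targets that arrest the cell cycle, such as Cdkn1a (p21), and targets that promote cell death, such as Bax. BAX and BAK open the outer mitochondrial membrane, the pro-survival proteins BCL-XL (Bcl2l1) and MCL1 hold them in check, and BH3-only proteins such as BIM (Bcl2l11) oppose the pro-survival proteins. In preimplantation embryos, p53 activity and apoptosis are known for their part in the removal of damaged cells and of less fit cells. Because p53 protein is controlled mainly after translation, the RNA of Trp53 does not report its activity.

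RNA was measured by CEL-Seq2, which tags the 3′ end of each captured polyadenylated transcript with a unique molecular identifier (UMI). Values are given as UMIs or as counts scaled to 1000000 UMIs of an embryo (CPM), with no scaling for gene length. The labels describe 2 library pools of 12 embryos, one holding 1C with 8CB and the other 2CB with 4CB, and the same 12 barcodes served both pools. The comparison of 2CB and 4CB with 1C and 8CB is therefore also a comparison of the pools, and the 2 cannot be told apart. Depth ranged from 70941 to 1507471 UMIs per embryo, with 6658255 UMIs in the 2CB and 4CB pool and 2952530 in the 1C and 8CB pool. Differences are log2 fold changes with their standard error (SE), and a gene is said to be called where its p, adjusted by the Benjamini-Hochberg method over all 5940 genes tested, was below 0.1. The labelled blastocyst-stage material was checked against markers: every gene listed for trophectoderm (12), epiblast and ICM (10) and primitive endoderm (10) had UMIs in 2CB and in 4CB embryos. In 1C embryos Elf5, Fgf4, Prdm14, Foxa2, Lama1 and Sox7 were at 0 UMIs, and in 8CB embryos Gata2, Foxa2, Sox17 and Sox7 were. Of the cumulus cell genes, 6 of 10 (Amh, Cyp19a1, Foxl2, Fshr, Has2 and Ptx3) were at 0 UMIs throughout. The summed trophectoderm markers ranged from 405 to 1057 CPM in 1C and 8CB embryos and from 3312 to 6872 CPM in 2CB and 4CB embryos. Tfap2c (means of 416 and 380 CPM) and Gata3 (185 and 272 CPM) made up most of the sums in 1C and 8CB. Other trophectoderm genes were close to absent there, such as Id2 with means of 3.05 and 4.96 CPM, against 604 and 733 CPM in 2CB and 4CB.

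Because p53 binds DNA directly, the bases upstream of the members' start sites were searched for its half-site, which has 10 bases: 3 purines, a C, 2 bases that are A or T, a G and 3 pyrimidines. A p53 response element is formed by 2 such half-sites with up to 13 bases between them. RefSeq windows (GRCm38.p6, from 250 bases before to 50 after a start site) were matched for 9 of the 10 genes, and the entry for Trp53inp1 was missing. Only the 250 bases before each start site were searched. Cdkn1a had 2 windows. That of its upstream start held 2 half-sites that met this definition, with 12 bases between them. That of a downstream start, at chr17:29093769, held no half-site. No mismatch was allowed. The bases tgacatgttc, directly after the second half-site, miss the pattern only in their first base and are not in capitals below. Which half-sites act together was not tested. The 250 bases before the upstream start, chr17:29090729-29090978 on the plus strand, are shown because Cdkn1a had the largest fold change of the members tested, with the half-sites in capitals.
Cdkn1a: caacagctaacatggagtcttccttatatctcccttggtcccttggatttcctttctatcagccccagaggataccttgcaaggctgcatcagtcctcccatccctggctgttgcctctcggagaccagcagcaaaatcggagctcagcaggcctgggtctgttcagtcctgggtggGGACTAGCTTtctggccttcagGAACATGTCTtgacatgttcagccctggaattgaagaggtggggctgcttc

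Single half-sites, without a second within reach, were found upstream of 4 more members. Each is shown in capitals within 20 bases on either side, in the direction of transcription, to set beside Cdkn1a. Those of Mdm2 (chr10:117710915-117710964), Ccng1 (chr11:40755442-40755491) and Bax (chr7:45467070-45467119) are on the minus strand, and that of Trp53 (chr11:69580264-69580313) is on the plus strand.
Mdm2: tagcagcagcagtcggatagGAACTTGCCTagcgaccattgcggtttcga
Ccng1: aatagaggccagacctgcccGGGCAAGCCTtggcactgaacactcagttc
Bax: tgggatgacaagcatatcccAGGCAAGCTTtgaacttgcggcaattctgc
Trp53: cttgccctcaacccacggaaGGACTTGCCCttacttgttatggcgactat
The half-site reads the same on both strands. Among all 32851 windows, the 250 bases before the start site held it in 7.13%, and 2 half-sites in reach of each other in 0.0639%. No half-site lay in the bases searched for Bak1, Bcl2l1, Bcl2l11 and Mcl1, which says only that these letters are not there. A match of letters is no evidence that p53 was bound in these embryos, and the sites known to act in other members can lie outside the windows, for example in the first intron of Mdm2.

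Trp53, at chr11:69580359-69591873, was detected in all 24 embryos with 1178 UMIs. Its level ran from 130 to 259 CPM in 1C embryos (median 211) and from 96.5 to 273 CPM in 8CB embryos (median 152). In 2CB embryos it ran from 69.1 to 196 CPM (median 111) and in 4CB embryos from 59.3 to 166 CPM (median 75.4). The ranges overlapped, with 5 of 12 2CB and 4CB embryos below the lowest 1C or 8CB embryo. Trp53 was lower in 2CB and 4CB than in 1C and 8CB by edgeR's quasi-likelihood test, with a log2 fold change of -0.88 (SE 0.23, adjusted p = 0.00186). In RNA from a whole embryo, fewer cells of a type and less RNA per cell cannot be told apart, here and for every member that follows.

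Mdm2, at chr10:117688875-117710758, carried 896 UMIs and was also found in every embryo. Its medians were 63.5 CPM in 1C and 84.3 CPM in 8CB embryos, and 97.2 CPM in 2CB and 77.7 CPM in 4CB embryos. Single embryos ranged from 34.1 CPM in 8CB to 203 CPM in 2CB, and every pair of stages overlapped. Across the pools its log2 fold change, signed here and below as 2CB with 4CB over 1C with 8CB, was 0.11 (SE 0.27, adjusted p = 0.774) and -0.086 without 2CB embryo 4, so the inhibitor did not pass the test where Trp53 did. Whether the 2 genes differed from each other in this comparison was not tested.

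Cdkn1a, the inhibitor of cyclin-dependent kinases at chr17:29090979-29100722, had the largest difference across the pools of the 9 genes tested. Its mean was 852 ± 354 CPM in 1C and 1045 ± 816 CPM in 8CB embryos, against 139 ± 135 CPM in 2CB and 161 ± 186 CPM in 4CB embryos (SD, n = 6 each). In 1C embryos the lowest, median and highest values were 526, 775 and 1415 CPM, and in 8CB embryos 269, 924 and 2250 CPM. In 2CB embryos they were 5.08, 112 and 375 CPM, and in 4CB embryos 13.2, 90.2 and 507 CPM. Of the 12 2CB and 4CB embryos, 10 lay below the lowest 1C or 8CB embryo, and the other two, 2CB embryo 3 and 4CB embryo 1, reached into the 1C and 8CB range. The log2 fold change was -2.66 (SE 0.49, adjusted p = 4.58e-05, edgeR). Pooled over embryos, 900 UMIs in 2CB and 4CB stood against 2765 in 1C and 8CB, a CPM ratio of 0.144 (95% interval 0.134 to 0.156, counting error only). A transcript annotated on the opposite strand, AC167363.2, overlaps exons of Cdkn1a, and the strand setting of the counting is not given in the sources used here.

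Trp53inp1, a stress-induced p53 target with a role in cell death and autophagy (chr4:11156431-11174379), followed the same division with smaller differences. Its medians were 199 CPM in 1C and 185 CPM in 8CB embryos, against 63.4 CPM in 2CB and 65.2 CPM in 4CB embryos. 6 of 12 2CB and 4CB embryos lay below the lowest 1C or 8CB embryo, and 4CB embryo 1, at 239 CPM, lay above 10 of the 12 1C and 8CB embryos. The log2 fold change was -1.08 (SE 0.29, adjusted p = 0.00298, edgeR). Ccng1, the p53 target that encodes cyclin G1 (chr11:40748552-40755311), did not pass the test, with a log2 fold change of 0.34 (SE 0.41, adjusted p = 0.517). It was 0.047 without 4CB embryo 1 and 0.52 without 8CB embryo 5. Its medians were 35.9, 35.5, 26.7 and 21.7 CPM in 1C, 2CB, 4CB and 8CB embryos, on 398 UMIs in all.

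**Figure D1:**
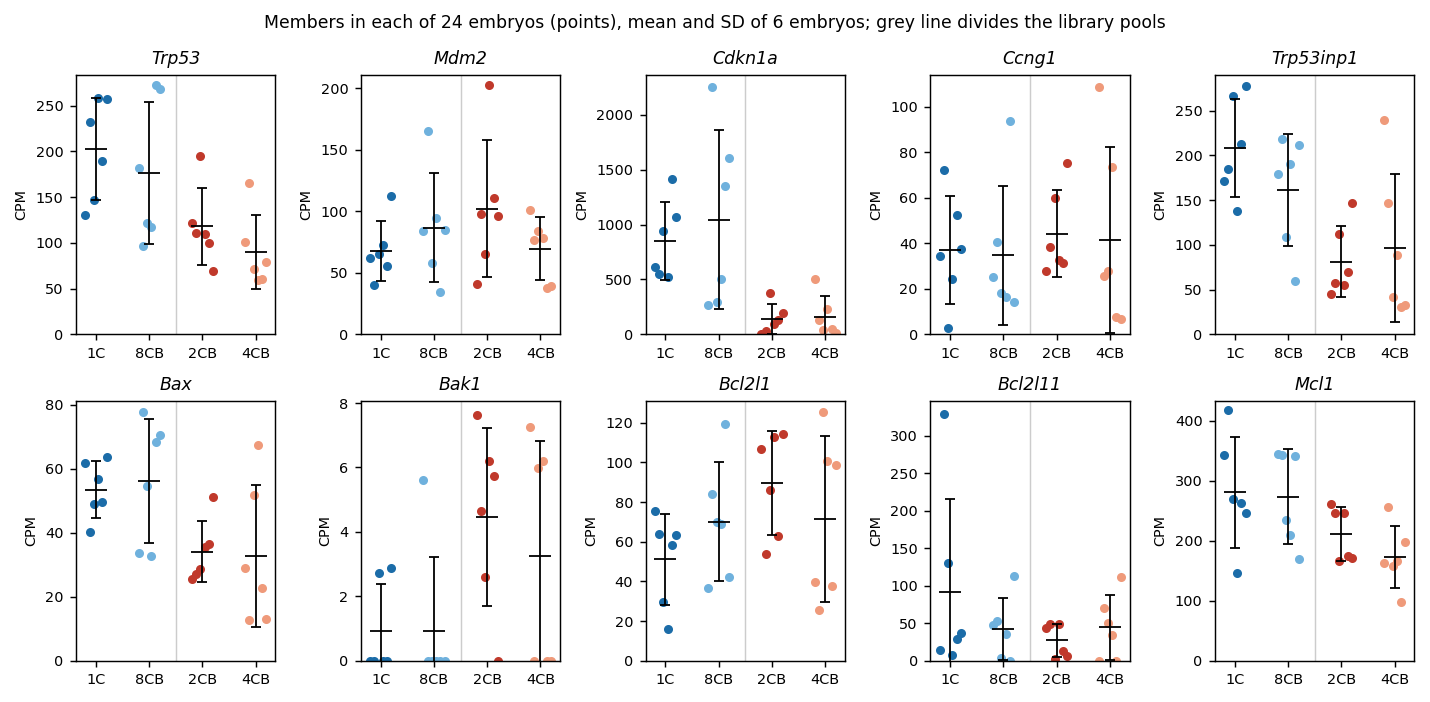
CPM of the 10 genes (vertical axis, linear from 0, one scale per panel) in each of 24 embryos (points) by stage (horizontal axis); bars are the mean and SD of 6 embryos, and a grey line divides the 1C and 8CB pool from the 2CB and 4CB pool. Cdkn1a lay below 269 CPM in 10 of 12 2CB and 4CB embryos, while Mdm2 and Ccng1 overlapped at every stage.

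Bax, the effector that permeabilizes mitochondria (chr7:45461697-45466898), had medians of 53.1 CPM in 1C and 61.5 CPM in 8CB embryos, and of 32.1 CPM in 2CB and 25.8 CPM in 4CB embryos. The stages overlapped, and 7 of 12 2CB and 4CB embryos lay below the lowest 1C or 8CB embryo. Its log2 fold change was -0.65 (SE 0.26, adjusted p = 0.0425, edgeR). It reached the level that the filter on low counts asks for in 12 of 12 1C and 8CB embryos and in 5 of 12 2CB and 4CB embryos, so that it passed the filter through the side where it was high. The adjusted p was 0.190 when genes of low count were kept and 0.169 when embryos were thinned to equal depth. A predicted gene on the same strand, Gm45808, overlaps exons of Bax and shares 14.2% of the 40-base stretches at its 3′ ends, but had 0 UMIs.

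Bak1, the other effector (chr17:27019810-27029009), was near the limit of detection with 37 UMIs in 11 of 24 embryos, and it alone of the 10 did not pass the filter on low counts. It had 33 UMIs in 2CB and 4CB and 4 UMIs in 1C and 8CB, and no embryo of any stage exceeded 7.62 CPM. The pooled CPM ratio was 3.66 (95% interval 1.30 to 14.2, counting error only). Without the filter the log2 fold change was 1.53 (SE 0.86, adjusted p = 0.232, edgeR). The interval leaves out the spread between embryos, which the model includes. Ggnbp1, on the opposite strand, overlaps exons of Bak1 and had 174 UMIs, so that reads of the 2 genes may not have been separated.

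Mcl1, a short-lived pro-survival protein's gene (chr3:95658788-95663176), carried 2151 UMIs. Its medians were 266 CPM in 1C and 288 CPM in 8CB embryos, and 210 CPM in 2CB and 164 CPM in 4CB embryos, with overlapping ranges. It was lower in 2CB and 4CB, with a log2 fold change of -0.56 (SE 0.19, adjusted p = 0.0145, edgeR). Bcl2l1, which encodes BCL-XL (chr2:152780668-152831728), did not pass the test, at 0.41 (SE 0.28, adjusted p = 0.231) and 0.24 without 4CB embryo 3. Its medians were 60.9, 96.3, 69.4 and 69.3 CPM in 1C, 2CB, 4CB and 8CB embryos. The difference between the 2 pro-survival genes was not tested.

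Bcl2l11, which encodes the BH3-only protein BIM (chr2:128126038-128162547), was the most uneven of the 9 members tested. Single embryos ranged from 0 to 329 CPM, the highest being 1C embryo 2 with 41 UMIs, and 3 of 24 embryos held no UMI. Stage medians were 33.3, 28.3, 42.2 and 41.8 CPM in 1C, 2CB, 4CB and 8CB embryos. The log2 fold change of -0.74 (SE 0.58) did not pass the test (adjusted p = 0.306, edgeR) and was -0.35 without 1C embryo 2, although its adjusted p was under the threshold when genes of low count were kept. The UMIs of Bcl2l1 and Mcl1, divided by those of Bax and Bak1, had medians of 6.13 in 1C and 6.15 in 8CB embryos, and of 8.34 in 2CB and 5.80 in 4CB embryos. Single embryos ranged from 2.86 to 22.5, and the stages overlapped. The 2 highest ratios, 22 and 22.5 in 4CB embryos 2 and 6, rest on 2 UMIs of Bax and Bak1 each, and the next was 12. This is a ratio of tag counts and not of proteins.

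In all, 5 of the 9 members tested were called lower in 2CB and 4CB and 0 were called higher. They include Bax, which passed the filter through 1C and 8CB and whose call was lost without a filter and after thinning, and 4 of the other 8 were called lower. Over all 5940 genes tested, 24% were called lower, 31.3% higher and 55.3% either way, so a call in this comparison was common. The median log2 fold change was -0.65 for the members, also without Bax, and 0.12 for all genes, given as a description. No member separated the 12 2CB and 4CB embryos from the 12 1C and 8CB embryos without overlap, as 5.74% of all genes did. Of the 12 trophectoderm markers, 11 were called higher and 1 lower in the same comparison, and of 7 primitive endoderm markers tested 6 were called higher and 1 lower. For epiblast and ICM markers the counts were 3 higher and 3 lower of 6 tested, and of 11 oocyte genes only Ooep was tested, and it was called higher. Some of the other oocyte genes, all untested, lay the other way. Zp3 had means of 34.5 and 22.9 CPM in 1C and 8CB against 5.88 and 2.99 CPM in 2CB and 4CB. Gdf9 had 16.0 and 5.85 CPM against 2.39 and 4.40 CPM, on 6 UMIs in 8CB and 5 in 4CB. Others did not, such as Mos with 0 and 2 UMIs in 1C and 8CB and 7 and 3 in 2CB and 4CB. The summed oocyte list did not divide by pool, with medians of 88.6 and 62.1 CPM in 1C and 8CB and 82.2 and 67.8 CPM in 2CB and 4CB. Of the markers called higher, 9 of the 11 for trophectoderm, 5 of the 6 for primitive endoderm, 2 of the 3 for epiblast and ICM, and Ooep passed the filter only through 2CB and 4CB, so these counts are a description only. The part of cell composition in the members' differences was not tested.

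**Figure D2:**
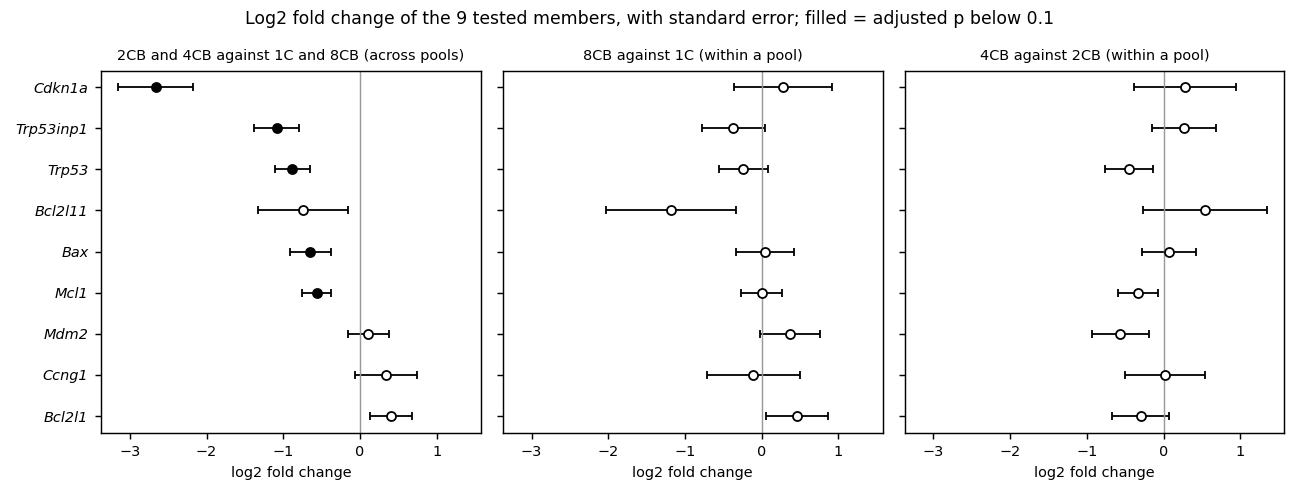
Log2 fold change (horizontal axis) of the 9 members tested, with its standard error, in the comparison across library pools and in the 2 comparisons within a pool; filled points passed an adjusted p below 0.1. The 5 filled points are all in the comparison across pools and run from -2.66 for Cdkn1a to -0.56 for Mcl1.

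Stages within one library pool were also compared, since there the pool does not enter. Between 8CB and 1C embryos, 0 of 9 members were called by edgeR, where 0% of all genes were called; 0 members and 550 of all genes had an unadjusted p below 0.05, and DESeq2 called 43 genes and 0 members. The largest difference was that of Bcl2l11, with a log2 fold change of -1.18 (SE 0.84, adjusted p = 0.680), but it was -0.31 without 1C embryo 2. Cdkn1a stood at 0.27 with a larger SE of 0.64, and at -0.17 without 8CB embryo 2, so that a moderate difference either way could not be seen at this spread. Between 4CB and 2CB embryos, 0 members were called, against 0.0337% of all genes; 0 members and 263 of all genes had an unadjusted p below 0.05, and DESeq2 called 10 genes and 0 members. Here the largest difference was -0.56 for Mdm2 (SE 0.37), which was -0.22 without 2CB embryo 4, followed by 0.54 for Bcl2l11 (SE 0.81), which was 0.11 without 4CB embryo 6. Cdkn1a stood at 0.28 (SE 0.67). A single embryo set the sign for 3 targets: without 4CB embryo 1, the difference between 4CB and 2CB went from 0.28 to -0.49 for Cdkn1a, from 0.27 to -0.26 for Trp53inp1 and from 0.02 to -0.45 for Ccng1. None of these values was called.

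In the test among all 4 stages, 4 of 9 members were called, against 47.1% of all genes. They were Cdkn1a (adjusted p = 0.000631), Trp53 (0.0116), Trp53inp1 (0.0184) and Mcl1 (0.0728), by edgeR. The call of Mcl1 was lost without 4CB embryo 5 (adjusted p = 0.121), with DESeq2 size factors (0.115), without a filter (0.187) and after thinning (0.257), and Bax, at 0.220 with all embryos, was gained without 4CB embryo 4 (0.0573).

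The members differed in how much embryos of one stage varied. The biological coefficient of variation, the square root of edgeR's dispersion, was 0.778 for Cdkn1a and 0.982 for Bcl2l11, higher than in 95.9% and 98.8% of all genes tested. Among 297 genes of similar level, each stood above 99.0%. The lowest value was 0.291 for Mcl1, above 6.97% of all genes and 14.8% of 297 genes of its level. Bax (0.338) stood above 12.8% and Trp53 (0.344) above 38.4% of the genes of their levels. Ccng1 stood at 0.605, Trp53inp1 at 0.464, Mdm2 at 0.415 and Bcl2l1 at 0.400. For Cdkn1a this means a range from 5.08 to 375 CPM among 2CB embryos alone, on 2 and 144 UMIs.

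**Figure D3:**
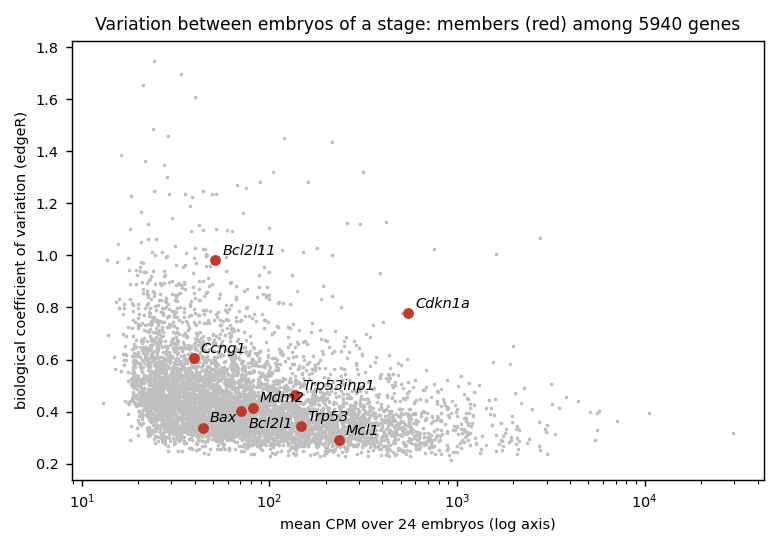
Biological coefficient of variation between embryos of a stage (vertical axis) against the mean CPM over 24 embryos (horizontal axis, log scale) for 5940 genes (grey) and the 9 members tested (red). Cdkn1a (0.778) and Bcl2l11 (0.982) lie above most genes of their level, and Mcl1 (0.291) has the lowest value of the members.

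Some embryos were high or low in several p53 targets together, and others were not. 2CB embryo 1 was the lowest of its stage in 5 of the 5 targets Cdkn1a, Mdm2, Trp53inp1, Ccng1 and Bax, with 5.08 CPM of Cdkn1a and 40.6 CPM of Mdm2. 4CB embryo 1 was the highest of its stage in 4 of the 5 and so was 8CB embryo 2, the latter with 2250 CPM of Cdkn1a and 165 CPM of Mdm2. Their depths, 393747, 275922 and 321255 UMIs, lay inside the ranges of their stages. Others went both ways: 8CB embryo 5 was the highest of its stage in Ccng1 and the lowest in Mdm2 and Trp53inp1, and 1C embryo 2 was the highest in Ccng1 and the lowest in Mdm2 and Bax. These embryos were singled out after their values were seen.

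Expressed as deviations of log2 CPM from the stage mean over 24 embryos, Cdkn1a went with Trp53inp1 (r = 0.65, rho = 0.66; 0.59 without the 2 embryos farthest in Cdkn1a). The relation was 0.81 within the 2CB and 4CB pool and 0.18 within the 1C and 8CB pool. Mdm2 and Trp53inp1 had an r of 0.55, with 0.78 in the 1C and 8CB pool and 0.43 in the other. Cdkn1a and Ccng1 had an r of 0.53, with 0.20 and 0.75. Without 4CB embryo 1 and 2CB embryo 1, the r in the 2CB and 4CB pool was 0.79 for Cdkn1a with Trp53inp1, 0.74 for Cdkn1a with Ccng1 and 0.25 for Mdm2 with Trp53inp1. The other 7 pairs of the 5 targets were weaker over all embryos. Trp53inp1 and Ccng1 had an r of 0.32, but the pools went opposite ways, with -0.48 in 1C and 8CB and 0.84 in 2CB and 4CB. Mdm2 and Ccng1 had an r of 0.11, with -0.30 and 0.50, and Trp53inp1 and Bax 0.06, with -0.15 and 0.13. Bax had an r of 0.44 with Cdkn1a (0.67 and 0.36), 0.41 with Ccng1 (0.20 and 0.57) and 0.33 with Mdm2 (0.20 and 0.42). Cdkn1a and Mdm2 had an r of 0.42, with 0.24 and 0.53, and the latter was 0.22 without 4CB embryo 1 and 2CB embryo 1. For Trp53 RNA, the r was 0.14 with Cdkn1a, -0.17 with Mdm2, 0.10 with Trp53inp1, 0.21 with Ccng1 and -0.33 with Bax. With Bax it was -0.61 in the 2CB and 4CB pool and 0.10 in the 1C and 8CB pool. Embryos share barcoding, depth and a library pool, and the deviations of Mdm2, Bax and Trp53 had an r of 0.44, 0.32 and -0.42 with log2 total UMIs, against 0.03 for Cdkn1a, 0.10 for Ccng1 and 0.13 for Trp53inp1. Trp53 and Bax thus went opposite ways with depth, and its part in their r was not tested. Over all 36 pairs of tested members the median r was 0.09, and no pair reached 0.5 in both pools.

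No gene came within the r of 0.8 that was set for naming genes of like pattern, for any member. Phlda3, a p53 target that restrains the kinase AKT, was noted after the values were seen because it was among the 3 nearest of 5939 genes for 3 members: it ranked 1 for Mdm2 (r = 0.74), 2 for Cdkn1a (r = 0.66) and 2 for Trp53inp1 (r = 0.74). With Mdm2 the r was 0.89 in the 1C and 8CB pool and 0.66 in the 2CB and 4CB pool. With Cdkn1a it was 0.35 and 0.79, and with Trp53inp1 0.62 and 0.79. The r in the 2CB and 4CB pool, with 4CB embryo 1 and 2CB embryo 1 left out, was 0.47 with Mdm2, 0.63 with Cdkn1a and 0.76 with Trp53inp1. Phlda3 is a gene of few counts, from 0 to 61 UMIs per embryo, and its own log2 fold change across pools was -0.35 (SE 0.43, adjusted p = 0.528, edgeR), with -0.04 without 8CB embryo 2 and -0.62 without 4CB embryo 1. Its deviations had an r of 0.29 with log2 total UMIs.

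**Figure D4:**
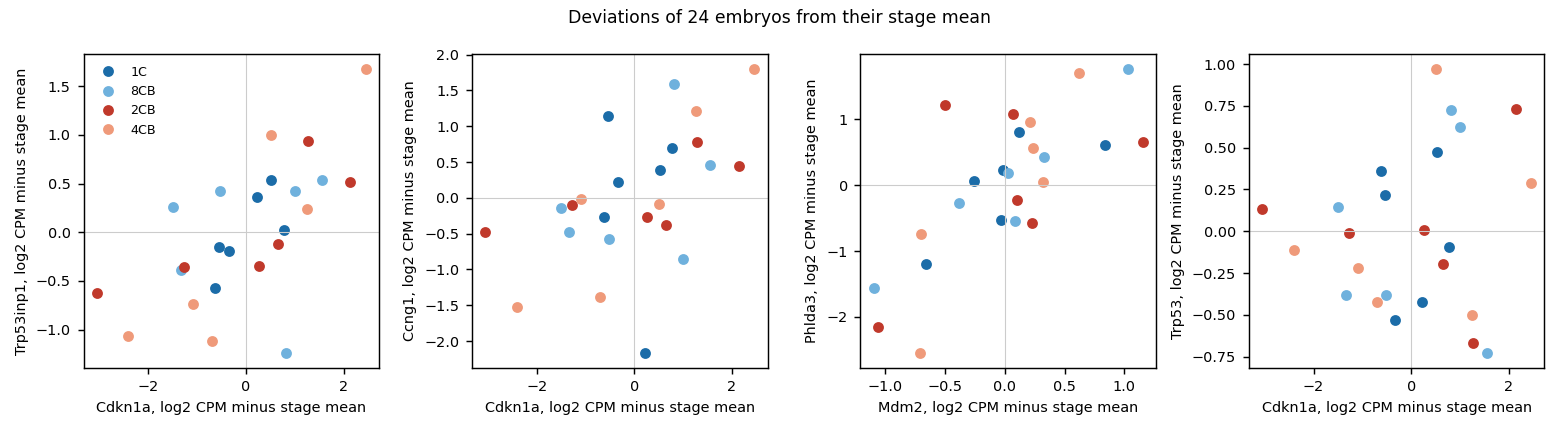
Deviations of log2 CPM from the stage mean for 24 embryos (points, coloured by stage): Cdkn1a with Trp53inp1 (r = 0.65), Cdkn1a with Ccng1 (0.53), Mdm2 with Phlda3 (0.74) and Cdkn1a with Trp53 (0.14). Over all 24 points the first 3 panels rise, and Cdkn1a with Trp53 is scattered. Among the 1C and 8CB points alone, r was 0.18, 0.20, 0.89 and 0.10 in the order of the panels.

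The wider pathway was read from 9 lists of 105 genes, the members included, of which 51 passed the filter. Across the pools, 9 were called higher in 2CB and 4CB and 17 lower (17.6% and 33.3% of those tested), beside 31.3% and 24% of all genes; the median was 0.05 against 0.12 for all genes. Without the members, 9 of 42 were called higher and 12 lower. Within each pool 0 of 51 were called. No test of a list was run. Of the 9 called higher, 5 (Gadd45g, Casp2, Pml, Atr and Aifm1) reached the level of the filter in enough embryos only on the 2CB and 4CB side, and of the 17 called lower, 2 (Bax and Bnip3l) only on the 1C and 8CB side. Such a gene entered the test through the side where it was high, so the counts are a description only. Aifm1, with a log2 fold change of 0.70 (SE 0.30), lost its call without a filter (0.66, adjusted p = 0.249, edgeR). The call was also lost without any one of 9 embryos, with an adjusted p of at most 0.148, without 4CB embryo 2 (log2 fold change 0.545).

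Among p53 and its regulators, 1 of 13 genes tested was called higher and 7 lower, beside 31.3% and 24% of all genes, with a median of -0.36. Atm, the kinase that signals DNA double-strand breaks to p53, was lower by a log2 fold change of -1.16 (SE 0.27, adjusted p = 0.000806, edgeR). Its medians were 74.0 CPM in 1C and 82.8 CPM in 8CB embryos, and 35.1 CPM in 2CB and 38.9 CPM in 4CB embryos. The gene called higher was Atr, the kinase of replication stress (0.91, SE 0.35), which was chosen after its values were seen. Its call was lost without a filter (0.88, adjusted p = 0.111, edgeR) and after thinning (0.69, adjusted p = 0.351).

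Of the 9 tested targets for the cell cycle and feedback, 2 were called higher and 4 lower, beside 31.3% and 24% of all genes. Cdkn1a and Trp53inp1 were among those called lower. Tigar, a target that lowers glycolytic flux, fell from medians of 466 CPM in 1C and 487 CPM in 8CB to 125 CPM in 2CB and 145 CPM in 4CB embryos, with a log2 fold change of -1.92 (SE 0.21, adjusted p = 1.37e-08). For this gene the 2 sides did not overlap: no 2CB or 4CB embryo exceeded 204 CPM and no 1C or 8CB embryo fell below 283 CPM. The list also held genes that moved the other way. Gadd45g, a stress gene of the GADD45 family that several inputs other than p53 also raise, had 2 UMIs over the 6 1C and 4 over the 6 8CB embryos, against 187 in 2CB and 198 in 4CB, a CPM ratio of 28.5 between the pools (95% interval 12.95 to 78.02, counting error only). Trp53i11 rose by 2.04 (SE 0.57, adjusted p = 0.00379, edgeR), and by 2.79 without 1C embryo 5 and 1.77 without 4CB embryo 2.

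The targets for cell death had 1 of 6 called in each direction, Bax lower and Pml, the organizer of PML nuclear bodies, higher at 1.28 (SE 0.34). Of 6 BH3-only and related genes 2 were called lower and 0 higher: Bcl2l14 at -1.54 (SE 0.32, adjusted p = 0.000217) and Bnip3l, a mitophagy receptor, at -1.37 (SE 0.30). Of 10 caspases, apoptosome genes and inhibitors 3 were called higher and 1 lower, with Casp2, which encodes an initiator caspase, at 1.67 (SE 0.41) and, after thinning, at 0.95 and no longer called (adjusted p = 0.207, edgeR). Of 4 death receptor genes Tradd, an adaptor of the TNF receptor, was called higher at 1.05 (SE 0.42, adjusted p = 0.0365), but at 0.52 and not called after thinning (adjusted p = 0.530). The 2 tested targets for DNA repair were called 1 each way, and of the 2 tested genes of the pro-survival and of the effector lists 1 each, Mcl1 and Bax, was called lower. Over all genes tested, 31.3% were called higher and 24% lower, so these counts in small lists are a description only.

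**Figure D5:**
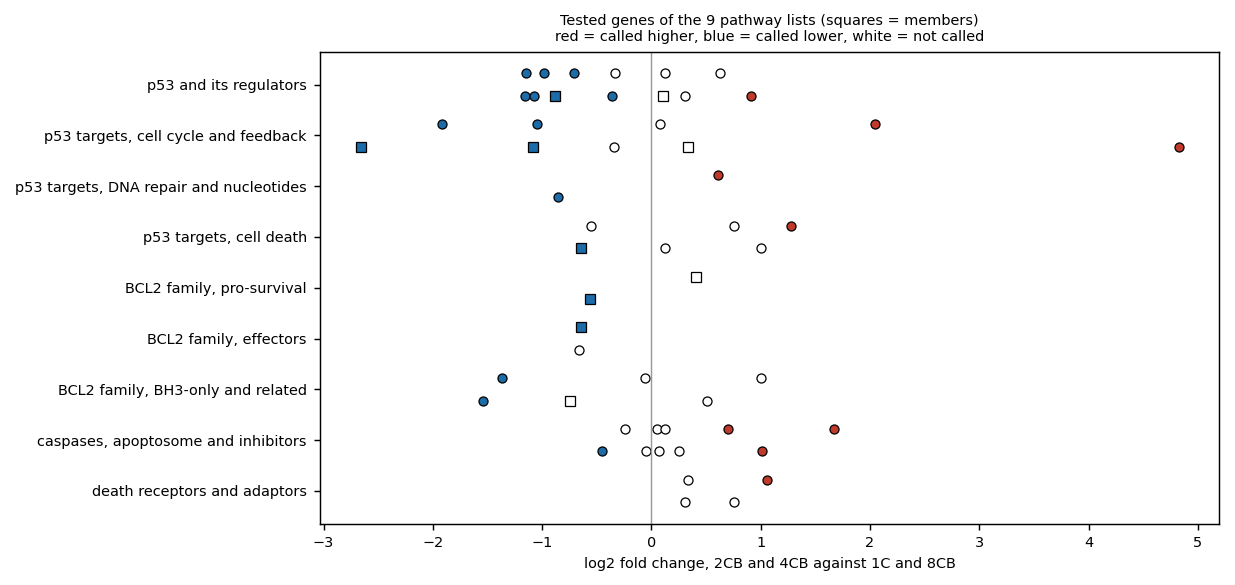
Log2 fold change across the pools, positive where 2CB and 4CB were higher (horizontal axis) for the tested genes of 9 pathway lists (vertical axis); squares are members, red was called higher, blue called lower and white not called, and a gene of several lists is drawn in each. Calls in both directions occur in the lists of targets, with Cdkn1a at -2.66 and Trp53i11 at 2.04; the point farthest to the right is Gadd45g, whose place is no measure of a fold because 1C and 8CB held 6 UMIs.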

How the data were processed

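The authors aligned CEL-Seq2 reads to GRCm38 with HISAT2 2.2.6 and counted with HTSeq 0.6.1, keeping a consensus read per group of duplicates with the same UMI; DESeq2 1.10.1 is named for later steps. The deposited values are whole-number UMI counts per gene and embryo, without normalization. The annotation release and strand setting are not given in the sources used here. Symbols came from GENCODE M21. 24 columns named Morula were not used. The largest count, 53029, exceeds the 4096 sequences that a UMI of 6 bases can have, the length in the CEL-Seq2 protocol, so counting intervals could be too narrow.

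Counts were tested with edgeR 4.0.16 in R 4.3.3 (TMM, filterByExpr, quasi-likelihood F test, 1 mean per stage over 24 embryos, Benjamini-Hochberg adjusted p below 0.1). On simulated counts with 200 of 5940 genes changed, it recovered 54% of log2 changes of 1 and 98% of changes of 2 across pools (5.26% and 11.3% of its calls were false), and 11.5% and 75% between 8CB and 1C (0% and 6.25% false). In the data 55.3% of genes were called across pools, so these rates hold only for the simulated setting. The filter kept 5940 genes. Common variation was 0.442. Pooled ratios have exact 95% binomial intervals. Correlations were computed on log2 CPM (prior count 2). Alternatives used DESeq2 1.42.0 and limma 3.58.1. Genes named were the members and, of the pathway lists, the 5 largest called changes each way with a mean of at least 20 CPM. Atr, Aifm1 and Phlda3 fell outside this rule and were chosen after their values were seen, as were the marker genes named. The members, lists and tests were chosen with earlier results of these data known. Equal replicate numbers did not pair embryos (mean correlation of deviations -0.016 over 36 pairs).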

Additional observations from a re-analysis of the deposited data

Results flagged for a closer look

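Each of the 10 genes was examined in each stage of 6 embryos, 40 groups in all, for one embryo that stood far from the other 5 by Dixon's criterion, and 2 groups held one. For normally distributed values, chance gives about 1 in 20. In 8CB embryo 5, Ccng1 was at 93.8 CPM, on 11 UMIs, and the nearest 8CB embryo was at 40.5 CPM. In 8CB embryo 1, Bak1 was at 5.61 CPM, which is 2 UMIs, and the other 8CB embryos had none.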

How the results depend on the processing

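The counts of members called kept within 1.5 times their values under all alternatives run: 4 to 5 across pools, 3 to 4 among the 4 stages and 0 within each pool, and leaving out 1 embryo gave 5, 3 to 5 and 0. Pathway genes called across pools numbered 20 to 32, and 24 to 30 with 1 embryo left out. With the replicate number as a block, 5 members and 25 pathway genes were called across pools, and no call of a member in the 3 comparisons changed. Of single values, Bax lost its call without a filter (adjusted p = 0.190) and after thinning (0.169), and Bcl2l11 gained one without a filter (0.0998); the cause was not tested. Mcl1 lost its call among the 4 stages with DESeq2 size factors (adjusted p = 0.115), without a filter (0.187) and after thinning (0.257), and Bcl2l11 gained one without a filter (0.0291). The members' medians across pools were -0.60 with DESeq2 size factors, -0.62 with total UMIs and -0.74 after thinning, beside 0.17, 0.14 and 0.10 for all genes.

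Signs that turned were all of uncalled values, and the cause was not tested. Between 8CB and 1C, limma voom gave -0.19 for Cdkn1a, 0.18 for Ccng1, -0.061 for Bax and 0.049 for Mcl1. Thinning gave 0.038 for Ccng1, -0.020 for Bax and 0.22 for Mcl1. Mcl1, close to 0 at -0.0013, was 0.037 with DESeq2, 0.024 with its size factors, 0.032 without a filter, 0.000581 with at least 5 UMIs in 12 embryos and 0.014 with only the embryos of the pool. Between 4CB and 2CB, Ccng1 was -0.057 without a filter, -0.099 after thinning, -0.074 with the replicate block and -0.012 with limma voom. Bax was -0.012 without a filter and -0.12 after thinning, and Bcl2l11 -0.515 after thinning. Across pools Mdm2 was -0.030 after thinning. With 1 embryo left out, the ranges that crossed 0 were, between 8CB and 1C, -0.17 to 0.45 for Cdkn1a, -0.54 to 0.11 for Ccng1, -0.12 to 0.16 for Bax and -0.12 to 0.12 for Mcl1. Between 4CB and 2CB they were -0.49 to 0.84 for Cdkn1a, -0.45 to 0.24 for Ccng1, -0.26 to 0.53 for Trp53inp1 and -0.28 to 0.22 for Bax, and across pools -0.086 to 0.21 for Mdm2. Depth limits Bak1, on 37 UMIs in all embryos.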
